A study of Mus musculus with 7 samples.

Results

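The collagen chain genes were taken as all rows of the deposited table whose symbol has the form Col, a type number, the letter a and a chain number. The rule found 44 of 56941 rows, and 40 of these 44 had a mean of at least 1 TPM (reads per gene length, scaled to a total of 1000000 in each library) over the samples and entered the test, among 17582 genes in all. The study measured RNA from cerebral cortex of mice at postnatal day 7 in 4 wildtype (WT) samples and 3 samples with the P213L variant of Hnrnph2, a gene for an RNA-binding protein that acts in splicing. The labels name the groups WT and P213L and give neither strain, sex nor zygosity, and they number the samples without saying that each is a separate animal; the p-values therefore reflect sample-to-sample spread, which may be technical. A gene-level table does not show the variant, so the labelled allele was not checked. The tissue label was checked against Slc17a7, the main vesicular glutamate transporter of cortical excitatory neurons, which had 247.8 to 707 TPM in all 7 libraries.

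Collagens are secreted proteins in which chains wind into trimers. Fibrillar collagens pack into the fibres of the meninges and of vessel walls, type IV collagens form the sheet of the basement membrane under the pial surface and around brain vessels, and type VI collagen forms beaded filaments beside both. The other classes decorate fibres (the FACIT collagens), carry fragments that limit vessel growth (the multiplexins), form short-chain networks, or stay in the plasma membrane. In the developing cortex the basement membrane anchors the end feet of radial glia. In bulk tissue, fewer cells of a type and less RNA per cell cannot be told apart.

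No chain passed the limma test (a linear model across all genes) at an adjusted p under 0.05. The adjusted p-values of the 40 chains lay between 0.827 and 1.00, and the share of all genes that passed was 0.0%, while 657 of the 17582 genes, 2 chains among them, had an unadjusted p under 0.05. The log2 fold change (P213L over WT, on log2(TPM + 0.5), as everywhere below) was above 0 for 38 of 40 chains, with a median of 0.29, against 63.4% of all genes with a median of 0.07. It was above 0 for 11 of 11 fibrillar chains (median 0.43), 5 of 5 type IV chains (median 0.32) and 22 of 24 other chains (median 0.20). These counts moved with the scaling: 34 of 40 chains were above 0 after median-of-ratios scaling and 33 of 40 after quantile normalization, and the exceptions lay outside the fibrillar class.

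WT replicate 3 stood apart from the other libraries. Its estimated depth was 57.2 M counted units (M, 1000000), the lowest of all, and the other 6 libraries had 66.4 to 79.4 M. Its correlation with the others over log2 values was 0.943 to 0.949. It was the lowest of the 7 libraries for 32 of 40 collagen chains and for 55.2% of all genes tested. Its collagen TPM stood at a median of 58.9% of the median of the other WT libraries, against 80.2% over all genes. The shortfall moved with gene length: with the 16616 tested genes that had a GENCODE length in 4 groups of near equal size, from the shortest to the longest, the median was 110.9%, 94.4%, 75.7% and 60.2%. Of the collagen chains, the 8 with under 5500 exonic bases had a median of 86.2% and the 32 longer chains one of 57.7%. Many of the results below are therefore also given with this library left out.

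**Figure D1:**
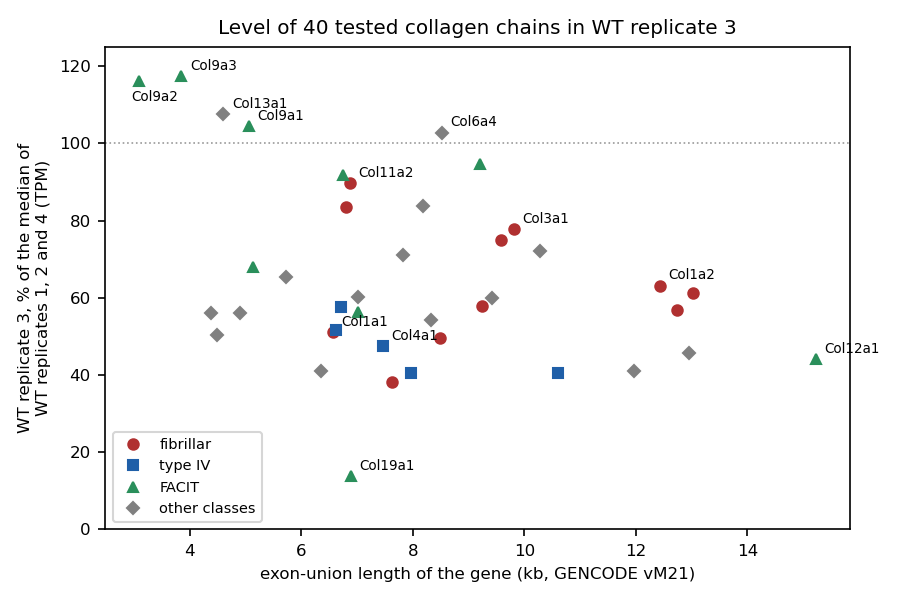
Level of the 40 tested collagen chains in WT replicate 3, as a percent of the median of the other WT libraries (vertical axis), against the exonic length of the gene in kb (horizontal axis). Points are chains, by class, and the dotted line marks 100%: the type IX chains lie above it and Col19a1 lies lowest, at 13.7%.

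Without WT replicate 3, 32 of 40 chains had a log2 fold change above 0, with a median of 0.10, beside 49.7% of all genes with a median of -0.001. The fibrillar count stayed at 11 of 11, with a median of 0.21. The type IV count was 4 of 5 with a median of 0.06, and the count of other chains was 17 of 24 with a median of 0.08. The fibrillar median was above those of the type IV chains and of the remaining chains in both fits. Without P213L replicate 2 the order changed, with medians of 0.33 for fibrillar, 0.35 for type IV and 0.22 for other chains.

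WT replicate 1 was above both WT replicate 2 and WT replicate 4 for 31 of 40 chains and for 11 of 11 fibrillar chains. Its chains stood at a median of 117% of the mean of those 2 libraries, against 99.9% over all genes. It reached or passed the lowest P213L library for 28 of 40 chains. The shares of all genes for these counts of chains were not worked out, so the counts do not set the chains apart from other genes.

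**Figure D2:**
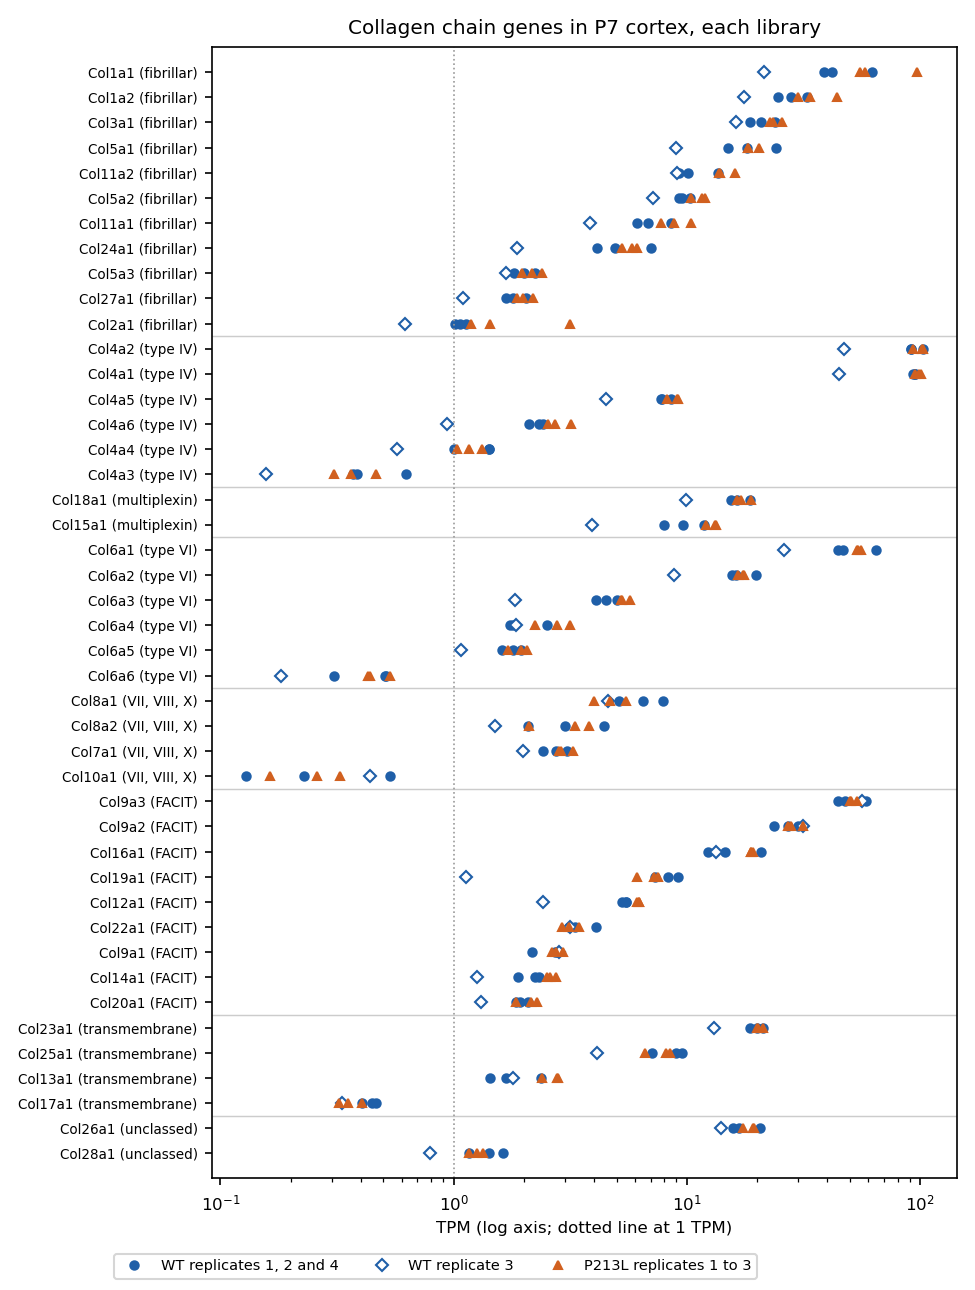
TPM of all 44 collagen chain genes in each library, on a log axis, ordered by class and by mean level within the class. Filled circles are WT replicates 1, 2 and 4, open diamonds WT replicate 3 and triangles the P213L libraries; the diamonds lie leftmost for 32 of the 40 tested chains, and the type IX chains (Col9a1, Col9a2 and Col9a3) are not among them.

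The summed level of all 44 chains showed the order of the libraries. It was 718, 594, 397 and 605 TPM in WT replicates 1 to 4 and 701, 729 and 679.7 TPM in P213L replicates 1 to 3. WT replicate 1 thus lay inside the P213L range, and the groups overlapped. The type IV chains gave 209.6, 197, 98.3 and 197 TPM in WT and 217, 202 and 212.9 TPM in P213L, so that WT replicates 1, 2 and 4 and all P213L libraries lay within a narrow band. The fibrillar chains gave 187, 139, 89.5 and 136 TPM in WT and 179, 235 and 173 TPM in P213L, a wider spread in both groups. FACIT chains spanned less, with WT at 104 to 133 TPM and P213L at 120 to 127 TPM. Type VI chains ranged from 39.9 to 94.2 TPM over the WT libraries and from 80.3 to 84.4 TPM over the P213L libraries.

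Promoters and start regions of some chains discussed below are printed here. They are those of the type I chain Col1a2 and the type III chain Col3a1, which had different patterns across libraries. The others are of type IV pairs, which share a start region. All are from RefSeq tables or the mouse genome of build GRCm38.p6, 5′ to 3′, with the searched motifs TATAAA (the TATA box), CCAAT (the CCAAT box) and GGGCGG (the GC box) in capitals. The first is the 250 bases before the RefSeq start of Col1a2 on the plus strand, chr6:4505368-4505617, which holds CCAAT 109 bases and GGGCGG 205 and 188 bases before the start; the GENCODE vM21 gene model begins upstream of it, at base 4504814.

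Col1a2: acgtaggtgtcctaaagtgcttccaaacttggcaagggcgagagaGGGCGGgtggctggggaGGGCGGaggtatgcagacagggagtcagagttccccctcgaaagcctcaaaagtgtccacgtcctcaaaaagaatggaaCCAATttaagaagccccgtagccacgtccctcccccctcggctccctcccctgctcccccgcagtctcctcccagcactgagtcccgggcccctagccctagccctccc

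The 250 bases before the start of Col3a1 on the plus strand, chr1:45311288-45311537, hold TATAAA 117 bases before the start and neither of the other motifs.

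Col3a1: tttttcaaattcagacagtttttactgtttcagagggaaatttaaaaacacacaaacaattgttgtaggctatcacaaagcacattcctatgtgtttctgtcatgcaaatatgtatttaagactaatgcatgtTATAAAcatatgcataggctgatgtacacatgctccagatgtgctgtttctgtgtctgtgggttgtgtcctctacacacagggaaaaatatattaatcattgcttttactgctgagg

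Col4a1 (minus strand) and Col4a2 (plus strand) are read in opposite directions, and their gene models overlap by 22 bases at chr8:11312805-11312826, printed on the plus strand, with GGGCGG in capitals.

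Col4a1 and Col4a2: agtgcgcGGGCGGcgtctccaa

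Col4a4 (minus strand) and Col4a3 (plus strand) also start head to head, 71 bases apart at chr1:82586850-82586920, printed on the plus strand; this stretch holds none of the motifs.

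Col4a4 and Col4a3: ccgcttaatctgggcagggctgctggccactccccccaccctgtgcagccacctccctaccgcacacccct

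The third type IV pair, Col4a6 and Col4a5 on chromosome X, has 1308 bases between the starts of its GENCODE vM21 models. RefSeq windows of 300 bases (250 before to 50 after the start) were matched for 35 of 44 chains. No window was matched for Col1a1, Col2a1, Col5a2, Col4a3, Col9a3, Col12a1, Col14a1, Col22a1 or Col26a1, so the counts below leave these out. Motifs were searched on both strands, where matches of different motifs may overlap. GGGCGG lay in 22 of 35 chain windows (6 of 8 fibrillar, 4 of 5 type IV) and in 35.7% of all 32851 windows. CCAAT lay in 13 of 35 (3 of 8 and 3 of 5), against 37.4% of all windows. TATAAA lay in 5 of 35 (2 of 8 and 0 of 5), against 13.6% of all windows. These matches describe letters and are no evidence of a factor's binding.

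Among the fibrillar chains, Col1a1 and Col1a2, which build type I collagen, the main fibre of bone, skin and meninges, had the highest levels. Col1a1 (chromosome 11, 94936224 to 94953042 in GRCm38, the coordinates used throughout) had 62.1, 41.9, 21.4 and 38.6 TPM in WT replicates 1 to 4 and 58.0, 96.8 and 55.3 TPM in P213L replicates 1 to 3. P213L replicate 2 was the highest library and WT replicate 3 the lowest, and WT replicate 1 lay above 2 of the 3 P213L libraries. The means were 41.0 ± 16.7 TPM (SD, n = 4) in WT and 70.0 ± 23.2 TPM (SD, n = 3) in P213L. The log2 fold change came to 0.81 ± 0.35 (SE; limma, adjusted p = 0.827, unadjusted p = 0.0509), the highest of the 40 chains. It was 0.54 ± 0.25 without WT replicate 3 and 0.56 without P213L replicate 2.

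Col1a2 (chromosome 6, 4504814 to 4541544) had 32.6, 27.8, 17.6 and 24.5 TPM in WT and 33.6, 44.0 and 30.0 TPM in P213L. The same libraries were the extremes as for Col1a1, and the groups overlapped through WT replicate 1. Its log2 fold change was 0.49 ± 0.22 (SE) and its adjusted limma p was 0.827. Without WT replicate 3 the fold change was 0.33. Col3a1 (chromosome 1, 45311538 to 45349706), the chain of type III collagen of soft tissue and vessel walls, had 23.8, 20.8, 16.2 and 18.6 TPM in WT and 25.6, 23.5 and 22.8 TPM in P213L. Here P213L replicate 1 was the highest, and the P213L libraries spanned less than the WT libraries. Its log2 fold change was 0.28 ± 0.15 (SE) and its adjusted limma p was 0.827; without WT replicate 3 the fold change was 0.19.

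**Figure D3:**
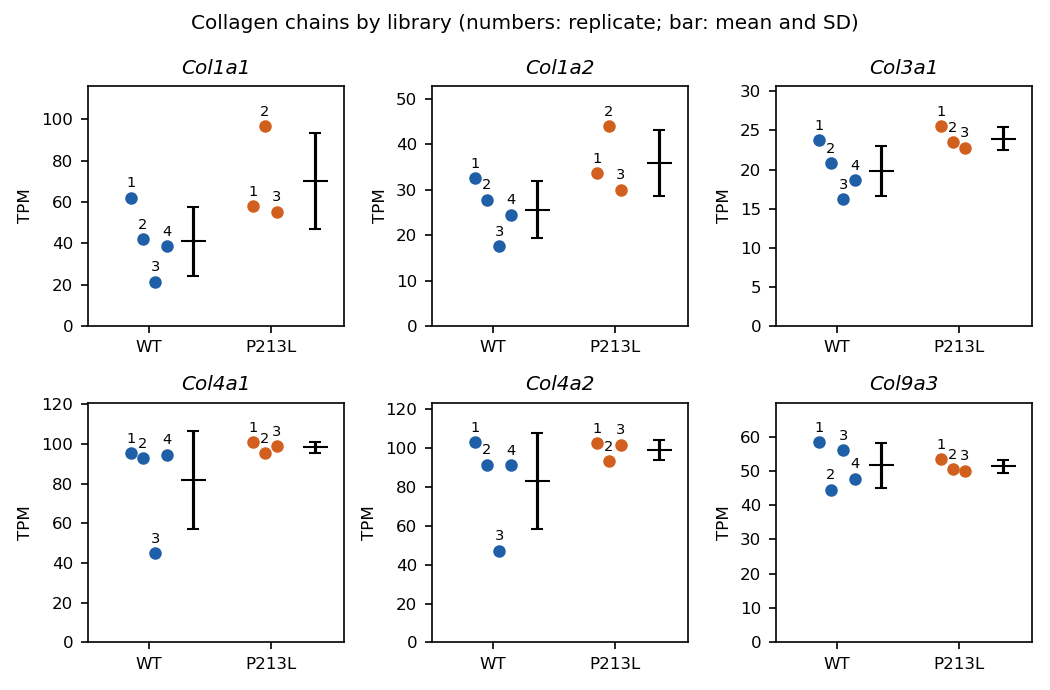
TPM of Col1a1, Col1a2, Col3a1, Col4a1, Col4a2 and Col9a3 in each library (vertical axes start at 0; numbers are replicates; the bar is the mean with its SD, n = 4 WT and n = 3 P213L). P213L replicate 2 stands out for Col1a1 at 96.8 TPM, WT replicate 3 for Col4a1 at 44.9 TPM, and neither for Col9a3.

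Of the other fibrillar chains, 3 had P213L libraries that all lay above all WT libraries, as did 5.94% of all genes. Col11a2 (chromosome 17, 34039437 to 34066685), a chain of type XI collagen that sets fibre width in cartilage, had 13.6, 9.24, 9.07 and 10.1 TPM in WT and 13.9, 16.1 and 13.7 TPM in P213L. WT replicate 1 came within 0.106 TPM of the lowest P213L library. The log2 fold change of Col11a2 was 0.47 ± 0.16 (SE, limma, unadjusted p = 0.0217, adjusted p = 0.827). Col5a2 (chromosome 1, 45374321 to 45503282), which with Col5a1 starts type I fibrils, had 10.3, 9.57, 7.17 and 9.26 TPM in WT and 11.6, 11.95 and 10.4 TPM in P213L. The gap between the groups was again small, and its log2 fold change came to 0.31 ± 0.15 (SE, limma, adjusted p = 0.827). Col2a1 (chromosome 15, 97975602 to 98004695), the chain of cartilage collagen, was low: 1.12, 1.02, 0.618 and 1.07 TPM in WT and 1.19, 3.15 and 1.43 TPM in P213L. P213L replicate 2 carried much of its difference, as the log2 fold change of 0.66 ± 0.30 (SE) was 0.33 without it. The exact permutation test of the group labels gave p = 0.0286 for Col2a1, two-sided, which is the smallest p these groups allow. By the same test p was 0.0571 for Col11a2 and for Col5a2, 0.114 for Col1a1 and for Col1a2, and 0.143 for Col3a1. In limma, Col2a1 had an unadjusted p of 0.0577 and an adjusted p of 0.827.

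The other 5 fibrillar chains were Col5a1, Col11a1, Col24a1, Col5a3 and Col27a1, with means over the 7 libraries between 1.81 and 17.6 TPM. Their groups overlapped. P213L replicate 2, the library of highest Col1a1, was also the highest of the 7 for Col1a2, Col2a1, Col5a2, Col11a1, Col11a2 and Col27a1, but not for Col3a1, Col5a1, Col5a3 or Col24a1. Col5a1 had 16.6 ± 6.29 TPM (SD, n = 4) in WT and 19.0 ± 1.18 TPM (SD, n = 3) in P213L, and its log2 fold change of 0.27 was 0.02 without WT replicate 3.

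Among the type IV chains, Col4a1 and Col4a2, which form the common trimer of the basement membrane, had the highest mean levels of all 44 chains over the 7 libraries. They were not the highest in each library: Col1a1 lay above both in P213L replicate 2, at 96.8 TPM, and Col9a3 did in WT replicate 3, at 56.0 TPM. Col4a1 (chromosome 8, 11198423 to 11312826) had 95.2, 92.7, 44.9 and 94.5 TPM in WT and 101, 95.4 and 98.8 TPM in P213L. WT replicate 3 had the lowest level, and the remaining libraries lay between 92.7 and 101 TPM. The P213L libraries were all above the WT libraries, yet the lowest P213L library exceeded WT replicate 1 by 0.201 TPM. The log2 fold change was 0.33 ± 0.26 (SE) with an adjusted limma p of 0.827, and 0.06 ± 0.05 without WT replicate 3. By exact permutation of the labels, two-sided, p was 0.429 for Col4a1. That test compares mean log2 values, which the low value of WT replicate 3 moves, and is not a test of ranks. Col4a2 (chromosome 8, 11312805 to 11449287) had 103, 91.6, 47.2 and 91.1 TPM in WT and 102, 93.2 and 102 TPM in P213L. The groups overlapped. Its log2 fold change of 0.31 likewise came to 0.06 without WT replicate 3, with an interval of -0.11 to 0.23.

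Col4a5 and Col4a6, which make the basement membrane trimers of kidney and smooth muscle, were lower. Col4a5 (X, 141475385 to 141689234) had 7.78, 8.57, 4.49 and 7.74 TPM in WT and 9.02, 9.16 and 8.196 TPM in P213L, with an overlap through WT replicate 2. Col4a6 (X, 141165403 to 141474076) had 2.41, 2.33, 0.941 and 2.11 TPM in WT and 3.18, 2.53 and 2.71 TPM in P213L, without overlap. The log2 fold change of Col4a6 was 0.48 ± 0.27 (SE, limma, adjusted p = 0.827) and 0.25 without WT replicate 3. Col4a4 had group means of 1.10 TPM (WT) and 1.18 TPM (P213L), and its fold change of 0.10 was -0.08 without WT replicate 3. Col4a3 was under the minimum, at 0.157 to 0.627 TPM.

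The multiplexins Col18a1 and Col15a1 lie in the basement membrane zone of vessels, and Col18a1 carries the endostatin fragment. Col18a1 had 18.7, 15.5, 9.88 and 16.4 TPM in WT and 18.8, 16.4 and 17.1 TPM in P213L, with overlapping groups. Col15a1 (chromosome 4, 47208161 to 47313167) had 11.8, 7.95, 3.93 and 9.59 TPM in WT and 13.3, 12.1 and 13.2 TPM in P213L, with all P213L libraries higher. Its log2 fold change was 0.69 ± 0.32 (SE) and its adjusted limma p was 0.827. The fold change was next to that of Col1a1 in size among the tested chains, and 0.39 ± 0.14 without WT replicate 3.

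Type VI collagen is built from Col6a1, Col6a2 and a longer chain, most often Col6a3. Col6a1 had 64.4, 44.5, 26.1 and 46.6 TPM in WT and 55.5, 53.3 and 54.1 TPM in P213L. The P213L libraries lay close together inside the WT range. Col6a2 had 19.8, 16.3, 8.84 and 15.7 TPM in WT and 17.6, 16.5 and 17.3 TPM in P213L, also inside the WT range. Col6a3 (chromosome 1, 90765923 to 90843971) had 4.99, 4.09, 1.84 and 4.49 TPM in WT and 5.70, 5.22 and 5.29 TPM in P213L, without overlap. The log2 fold changes were 0.33, 0.23 and 0.51 for Col6a1, Col6a2 and Col6a3, and 0.09, -0.003 and 0.23 without WT replicate 3. Of the alternative long chains, Col6a4 and Col6a5 lay between 1.08 and 3.15 TPM and Col6a6 was under the minimum.

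Col8a1 and Col8a2 form the short-chain network of vessel walls and of Descemet's membrane, and Col7a1 forms the anchoring fibrils of skin. Col8a1 had 5.12, 7.93, 4.59 and 6.45 TPM in WT and 4.001, 5.50 and 4.68 TPM in P213L. It was 1 of the 2 chains with a fold change below 0, at -0.30 ± 0.20 (SE, limma, adjusted p = 0.827) and at -0.41 ± 0.17 without WT replicate 3. Col8a2 had 2.998, 4.40, 1.51 and 2.09 TPM in WT and 3.80, 3.33 and 2.10 TPM in P213L, with overlapping groups. Col7a1 had 3.07, 2.42, 1.99 and 2.76 TPM in WT and 2.82, 2.89 and 3.26 TPM in P213L. Col10a1, the chain of hypertrophic cartilage, had 0.129 to 0.531 TPM, an estimated 7 to 31 counted units per library.

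Among the FACIT collagens, the type IX chains did not share the low values of WT replicate 3. Col9a3 and Col9a2, chains of type IX collagen, which sits on type II fibres in cartilage, were the highest of the class. Col9a3 (chromosome 2, 180597790 to 180622189) had 58.3, 44.5, 56.0 and 47.7 TPM in WT and 53.5, 50.5 and 50.1 TPM in P213L. Col9a2 (chromosome 4, 121039385 to 121055322) had 29.9, 23.5, 31.4 and 27.0 TPM in WT and 31.4, 27.9 and 27.0 TPM in P213L. Both had overlapping groups and log2 fold changes near 0 (0.0003 ± 0.12 and 0.05 ± 0.13, SE), with 95% intervals of -0.29 to 0.29 and -0.26 to 0.35. Col9a3, Col9a2 and Col9a1 stood at 117%, 116% and 104% of the other WT libraries in WT replicate 3. Type II collagen itself was low, with a mean of 0.958 TPM for Col2a1 in WT against 51.6 TPM for Col9a3.

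Col16a1, which lies beside fibrillin filaments in some tissues, had 20.8, 12.4, 13.4 and 14.6 TPM in WT and 19.2, 18.8 and 18.7 TPM in P213L. The P213L libraries were alike, and WT replicate 1 was above them. Col12a1 (chromosome 9, 79598991 to 79718831), which coats type I fibres, had 5.26, 5.46, 2.41 and 5.50 TPM in WT and 6.25, 6.20 and 6.14 TPM in P213L. Its groups did not overlap, and its log2 fold change was 0.44 with WT replicate 3 and 0.18 ± 0.08 without it. Col14a1 (chromosome 15, 55307750 to 55520803), of the same structure, had 2.24, 2.32, 1.26 and 1.88 TPM in WT and 2.51, 2.75 and 2.58 TPM in P213L, without overlap. Col19a1, known from subsets of cortical interneurons, had 7.28, 8.27, 1.13 and 9.16 TPM in WT and 6.14, 7.49 and 7.26 TPM in P213L. WT replicate 3 held 13.7% of the other WT level of Col19a1, and the log2 fold change went from 0.38 ± 0.59 (SE) to -0.23 ± 0.12 (SE) without it. Col22a1, Col9a1 and Col20a1 lay between 1.31 and 4.07 TPM, with overlapping groups, and Col21a1 was not analysed here.

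Among the transmembrane collagens, Col23a1 had 20.01, 18.6, 13.1 and 21.1 TPM in WT and 21.1, 19.9 and 20.2 TPM in P213L. Col25a1, which is needed for motor innervation of muscle and whose fragment is found in amyloid plaques, had 7.05, 9.50, 4.12 and 9.02 TPM in WT and 6.63, 8.42 and 8.16 TPM in P213L. Both had overlapping groups. Col13a1 (chromosome 10, 61838236 to 61979108), a component of cell adhesion sites, had 2.37, 1.43, 1.80 and 1.67 TPM in WT and 2.80, 2.78 and 2.40 TPM in P213L. Its P213L libraries were all higher, by at least 0.0251 TPM, and WT replicate 3 was not low. The log2 fold change of Col13a1 was 0.46 ± 0.18 (SE, limma, unadjusted p = 0.0347, adjusted p = 0.827), and 0.46 without WT replicate 3. Col17a1, the hemidesmosome collagen of skin, had 0.323 to 0.465 TPM. Of the 2 chains outside these classes, Col26a1 had 20.6, 15.8, 14.0 and 16.7 TPM in WT and 19.4, 17.4 and 19.2 TPM in P213L. Col28a1 had 1.64, 1.16, 0.790 and 1.41 TPM in WT and 1.26, 1.16 and 1.33 TPM in P213L.

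**Figure D4:**
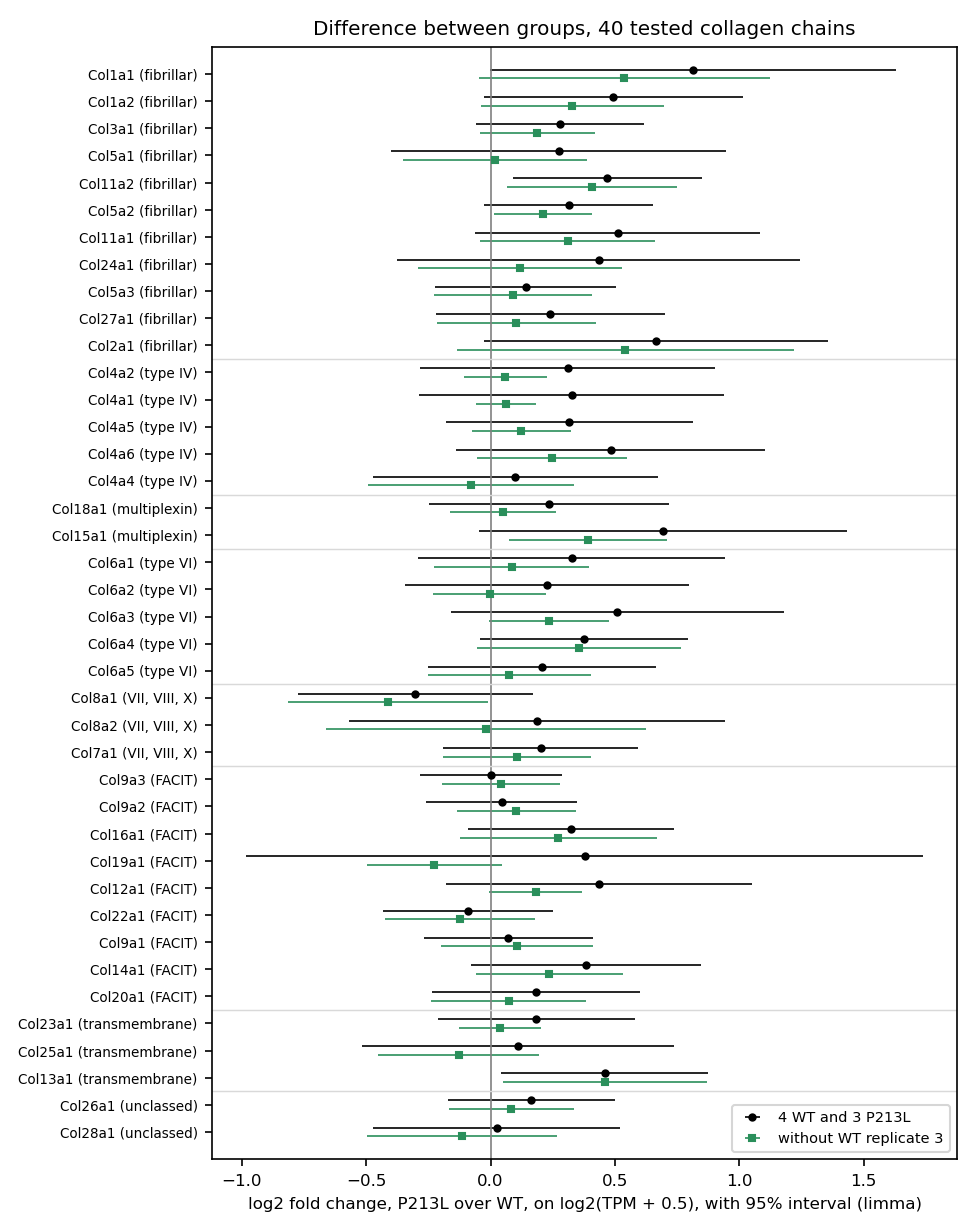
Log2 fold change of the 40 tested chains, P213L over WT, with 95% intervals from limma, for all 7 libraries (black circles) and without WT replicate 3 (green squares). The points of fibrillar chains lie to the right of 0 in both fits, with medians of 0.43 and 0.21. Most of their intervals include 0: only that of Col11a2 excludes it with all libraries, and those of Col11a2 and Col5a2 without WT replicate 3. Type IV chains move towards 0, with medians of 0.32 and 0.06, and all their intervals include 0.

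Counted over the chains, 2 of 40 had an unadjusted p under 0.05 and a higher level in P213L (Col11a2 and Col13a1), where 2.36% of all genes did. None was lower at that threshold, where 1.38% of all genes were. The split of all genes at that threshold was 415 higher and 242 lower, but 371 and 344 after median-of-ratios scaling and 400 and 410 after quantile normalization. Neither chain was under 0.05 without WT replicate 2 or without P213L replicate 2, and Col13a1 was also not under 0.05 without WT replicate 4, P213L replicate 1 or P213L replicate 3. Col13a1 was not under 0.05 with no filter on low levels, nor after median-of-ratios scaling or quantile normalization. After either of these scalings Col1a1, Col1a2 and Col15a1 joined Col11a2 on the higher side, and after quantile normalization Col8a1 was under 0.05 on the lower side. Without WT replicate 1, 10 chains were under 0.05, among them Col1a1, Col1a2, Col3a1 and Col11a1. In that fit 1571 of all 17552 genes tested were under 0.05, 1172 higher and 399 lower. Without WT replicate 3, 4 of 40 chains were higher at that threshold (Col11a2, Col13a1, Col15a1 and Col5a2), where 4.7% of all genes were, and Col8a1 was lower, where 3.95% were.

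The P213L libraries all lay above the WT libraries for 10 of 40 chains, namely Col11a2, Col5a2, Col2a1, Col4a1, Col4a6, Col15a1, Col6a3, Col12a1, Col14a1 and Col13a1, beside 5.94% of all genes. None of the tested chains showed the reverse, where 2.75% of all genes did. Leaving out a WT library cannot lower this count; without WT replicate 3 no tested chain was added in either direction, where 7.33% of all genes lay higher and 6.83% lower. In WT replicate 3, Col11a2 and Col13a1 stood at 89.7% and 108% of the other WT libraries, and the other 8 of these chains at 40.4 to 74.9%. By exact permutation of the labels p was 0.0571 for Col15a1 and Col13a1, 0.0857 for Col4a6, Col6a3 and Col14a1, and 0.114 for Col12a1.

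A limma fit that weights the libraries by their agreement gave other calls. It gave WT replicate 3 a weight of 0.043 and P213L replicate 3 one of 6.90, and under it 22.6% of all genes passed an adjusted p of 0.05. Of the chains, 9 of 40 passed, a share near that of all genes. Col1a1, Col3a1, Col11a2, Col11a1, Col15a1, Col16a1, Col14a1 and Col13a1 were higher and Col8a1 was lower. None of the 5 tested type IV and 5 tested type VI chains was among them, numbers too small to set these classes apart.

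Chains that share a trimer can be set against each other within a library, where the scaling of that library cancels. The ratio of Col4a1 to Col4a2 was between 0.925 and 1.04 in all 7 libraries, WT replicate 3 included (0.952). The pair thus kept its proportion in that library while Col4a1 stood at 47.5% and Col4a2 at 51.6% of the other WT level. Whether the authors' counting used the strand of the reads is not given in the sources used here. Reads in the overlap of the Col4a1 and Col4a2 gene models may therefore have been shared or lost. The ratio of Col6a1 to Col6a2 was also narrow, at 2.74 to 3.25. The ratio of Col1a1 to Col1a2 was wider. It was 1.91, 1.504, 1.22 and 1.58 in WT and 1.73, 2.20 and 1.84 in P213L, with an overlap through WT replicate 1. On the log2 scale the ratio was 0.62 ± 0.27 (SD, n = 4) in WT and 0.94 ± 0.18 (SD, n = 3) in P213L. The difference between the groups was 0.32, and 0.21 without WT replicate 3. These ratios depend on the gene length used, since the exonic length of Col1a2 over all its transcripts is 12426 bases and that of its longest protein-coding transcript 5348 bases. With the latter lengths the ratio of Col1a1 to Col1a2 was 0.580 to 1.05; this multiplies every library by the same constant.

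Ratios across trimers set the fibrillar chains against others. Col1a1 to Col4a1, a fibre chain against a basement membrane chain, was 0.653, 0.452, 0.476 and 0.409 in WT and 0.576, 1.01 and 0.560 in P213L. Its log2 difference between the groups was 0.49, and 0.48 without WT replicate 3, so the low value of that library did not carry into it. Without P213L replicate 2 the difference was 0.21. Col3a1 to Col1a1 was 0.383, 0.497, 0.756 and 0.482 in WT and 0.441, 0.243 and 0.412 in P213L, with the highest value in the library of lowest Col1a1 and the lowest value in the library of highest Col1a1. Col5a2 to Col1a2 was 0.317 to 0.408 in WT and 0.271 to 0.348 in P213L. Among pairs chosen after their values were seen, Col4a5 to Col4a6 was 2.83 to 4.77 and Col9a3 to Col9a2 was 1.70 to 1.95 over the 7 libraries.

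**Figure D5:**
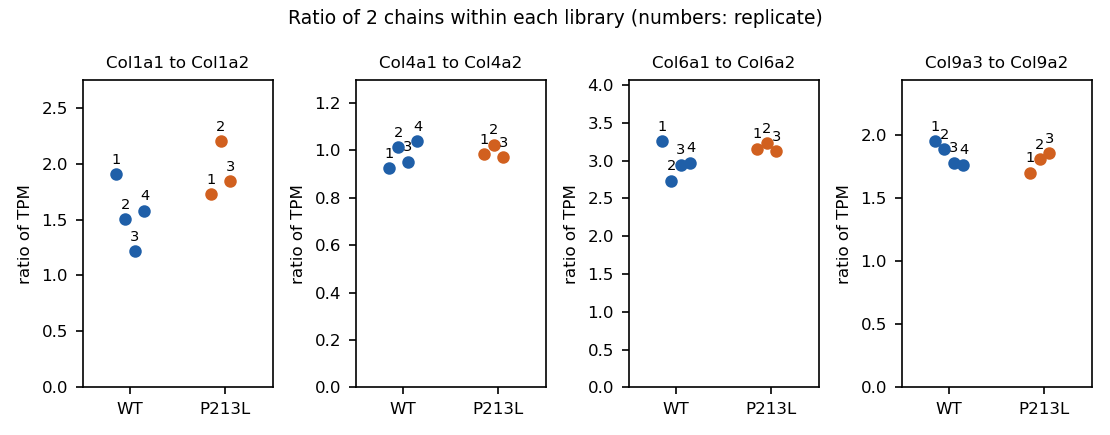
Ratio of TPM of 2 chains within each library (vertical axes start at 0; numbers are replicates). Col4a1 to Col4a2 stays between 0.925 and 1.04 and Col9a3 to Col9a2 between 1.70 and 1.95, while Col1a1 to Col1a2 runs from 1.22 in WT replicate 3 to 2.20 in P213L replicate 2.

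The genes that make and hold collagen were described from lists of known roles, and none of them passed the adjusted test. The counts above 0 for these lists stand beside 63.4% of all genes, and 49.7% without WT replicate 3. Of 19 genes for folding and modification, 17 had a fold change above 0, with a median of 0.21 (15 and 0.11 without WT replicate 3). Serpinh1, the collagen chaperone HSP47, had 105, 78.7, 71.0 and 89.4 TPM in WT and 123, 109.9 and 109.9 TPM in P213L. Its P213L libraries were all higher, and its log2 fold change was 0.42 ± 0.15 (SE, limma, unadjusted p = 0.0210). Plod3 and Crtap, which modify lysine and proline in collagen, had log2 fold changes of 0.38 and 0.31. Of 17 tested genes for secretion, trimming and crosslinking, 13 were above 0, with a median of 0.23 (9 and 0.01 without WT replicate 3), and Pcolce, which speeds trimming of procollagen ends, had an unadjusted p of 0.0449 in limma.

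Of 10 tested collagen receptors, 8 were above 0, with a median of 0.30 (7 and 0.15 without WT replicate 3). Mrc2, which takes collagen up for breakdown, had 12.03, 9.68, 6.36 and 9.94 TPM in WT and 14.7, 12.7 and 12.5 TPM in P213L, without overlap. Adgrg1, a receptor for type III collagen at the pial surface, had 77.8 ± 15.03 TPM (SD, n = 4) in WT and 94.8 ± 4.42 TPM (SD, n = 3) in P213L, with overlapping groups. Of 17 basement membrane partners, 15 were above 0, with a median of 0.28 (8 and -0.01 without WT replicate 3). Agrn, the proteoglycan agrin, had 276, 210.1, 108 and 225 TPM in WT and 263, 248 and 272 TPM in P213L.

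Of 20 tested partners of fibrils, 13 were above 0, with a median of 0.19 (11 and 0.02 without WT replicate 3). These counts were near the shares of all genes, 63.4% and 49.7%. Fbln1, a binder of elastic fibres and basement membranes, had 15.9, 15.8, 12.2 and 13.1 TPM in WT and 21.5, 18.7 and 18.4 TPM in P213L. Its groups did not overlap, and its log2 fold change was 0.45 ± 0.14 (SE, limma, unadjusted p = 0.0112). Of 14 tested genes of collagen breakdown, 11 were above 0, with a median of 0.15 (7 and 0.02 without WT replicate 3). Timp4, an inhibitor of the metalloproteinases, had 16.05 ± 1.68 TPM (SD, n = 4) in WT and 12.8 ± 0.466 TPM (SD, n = 3) in P213L, and all P213L libraries lay below the WT libraries.

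Meningeal fibroblasts are a known source of fibrillar collagen at the brain surface, and their markers lay mostly on the same side of 0 as the fibrillar chains. Of 26 tested markers of meningeal fibroblasts, 20 had a fold change above 0, where 63.4% of all genes did, with a median of 0.20. Without WT replicate 3, 22 did, where 49.7% of all genes did, with a median of 0.15. Of these 26, 5 were higher at an unadjusted limma p under 0.05, where 2.36% of all genes were, and the first 3 were Zic1, Islr and Foxc1, each without overlap of the groups. Another 6 of the 26 had fold changes below 0, the lowest at -0.27. The markers of highest mean level, Ptgds and Igfbp2, had log2 fold changes of 0.01 and -0.06. Foxc1, a transcription factor of the meninges, had 9.80, 9.19, 7.65 and 8.79 TPM in WT and 11.7, 11.5 and 10.9 TPM in P213L. The summed TPM of the list ran from 1241 to 1564 (WT) and from 1275 to 1551 (P213L), and Ptgds alone gave 745 to 1044 TPM of it. No marker of this list was at 0 in any library, 6 of its genes also stand in another of the lists, and its part in the fibrillar values was not tested.

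Markers of vessel cells, which make type IV collagen, lay on both sides of 0. Over all genes 63.4% were above 0, and 49.7% without WT replicate 3. Of 15 tested markers of pericytes and smooth muscle, 6 were above 0, with a median of -0.03 (4 and -0.08 without WT replicate 3), and their summed TPM ran from 401 to 439.9 (WT) and from 406 to 421 (P213L). Of 22 endothelial markers, 13 were above 0, with a median of 0.01 (9 and -0.04 without WT replicate 3), and their summed TPM ran from 749 to 856 (WT) and from 748 to 769 (P213L). WT replicate 3 was the lowest WT library for 12 of the 22 endothelial markers and the highest for 6, among them Cldn5, the tight junction protein of brain endothelium, at 332 TPM against 198 to 250 TPM. Of 8 tested choroid plexus markers, 1 was above 0 (0 without WT replicate 3). WT replicate 2 was the highest library for each of these markers, among them Folr1 at 7.18 TPM and Clic6 at 9.45 TPM. Ttr, the defining product of that tissue, was 1216 TPM in WT replicate 2 and 0.222 to 1.36 TPM elsewhere. Of the other lists, 5 of 11 astrocyte, 7 of 9 oligodendrocyte precursor, 10 of 12 neuron, 0 of 10 microglia, 5 of 8 Cajal-Retzius and subplate and 2 of 5 erythroid markers were above 0. Without WT replicate 3 these counts were 1 of 11, 3 of 9, 4 of 12, 2 of 10, 3 of 8 and 3 of 5. The summed TPM of each of these lists overlapped between the groups.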

How the data were processed

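RNA of 7 cortex samples was extracted with TRIzol and made into stranded mRNA libraries, per the labels' protocols. The submitters' processing notes name HISAT2, HTSeq and mm10; for versions, annotation, gene lengths and the strand setting of counting, the sources used here give nothing. TPM per gene, per the file headers, is what the authors deposited, and each column sums to 1000000. No column of another sample was present. Depth was estimated by multiplying TPM by exonic lengths of GENCODE vM21 and taking the most frequent low value in a library as 1 unit, where 95.1 to 96.1% of low values lay within 0.05 of a multiple of 0.5 units; the counts themselves were not used for a test.

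The test was limma 3.58.1 in R 4.3.3 on log2(TPM + 0.5), two-sided with a mean-variance trend, for the 17582 genes whose mean reached 1 TPM, with p-values adjusted over all of them (Benjamini-Hochberg, threshold 0.05), after a check on simulated data. Fold changes on this scale understate the change of low genes. Single chains were also tested by exact, two-sided permutation of the group labels (35 arrangements). Its statistic was the difference between the group means of log2(TPM + 0.5). Values in every sample were given for Col1a1, Col1a2, Col3a1, Col4a1, Col4a2, the 3 chains of highest mean TPM per class, and each chain with an unadjusted p under 0.05 or groups that did not overlap; other chains by ranges, with up to 4 examples per class by mean TPM, and up to 3 genes of smallest p and 2 of highest mean from each list. The members and lists were chosen with earlier results of these data known. Alternatives were other pseudocounts (0.1 and 1), filters, scalings, sample weights, a replicate block and leaving out each library; median-of-ratios scaling without WT replicate 3 and ratios by transcript length were added after seeing the data.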

Additional observations from a re-analysis of the deposited data

Results flagged for a closer look

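Among the 4 WT libraries, 63 values (44 chains, class sums and ratios) were examined for a library whose gap to its nearest neighbour exceeded Dixon's 95% critical value for 4 samples as a share of the group's range, which chance passes in about 1 of 20 groups. There were 4 such values, and 3 of them were low values of WT replicate 3. Col4a1 was 44.93 TPM there, against 92.67 to 95.17 TPM in the other WT libraries. The summed type IV chains were 98.3 TPM, against 197.2 to 209.6 TPM. Col12a1, a collagen on the surface of type I fibres, was 2.411 TPM, against 5.258 to 5.503 TPM. The fourth was a high value in WT replicate 1: Col6a4, a long type VI chain, was 2.51 TPM there and 1.742 to 1.853 TPM in the other WT libraries.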

How the results depend on the processing

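No chain passed an adjusted p of 0.05 under any alternative except sample weights. These called 9 of 40 chains and 3981 genes in all, or 22.6% of all genes tested. The number of genes at an unadjusted p under 0.05 was 657, and it was 1351 with a minimum mean of 0.1 TPM, 1836 with no filter, 6969 with sample weights, 1528 with median-of-ratios scaling without WT replicate 3, and 269 to 1571 when 1 library was left out. The number of chains under 0.05 was 2, and it was 4 with median-of-ratios scaling, 1 with no filter and 5 after quantile normalization, all with Col11a2 and without Col13a1, 5 with median-of-ratios scaling without WT replicate 3 and 4 without the mean-variance trend, both with Col11a2 and Col13a1, 20 with sample weights and 0 to 10 when 1 library was left out. The replicate block, which pairs equal replicate numbers, gave 0 chains and 500 genes, with 37 of 40 chains above 0. Same-numbered samples had deviation correlations of 0.128, 0.170 and -0.101. These were not set against samples of different numbers, so they cannot decide whether the numbers pair the samples. The count of chains above 0 was 32 to 38 under every alternative run. Some fold changes changed sign. With median-of-ratios scaling they were Col9a3 (-0.0837), Col9a2 (-0.0380), Col9a1 (-0.0013) and Col28a1 (-0.0303). With quantile normalization they were Col9a3 (-0.0599), Col9a2 (-0.0350), Col9a1 (-0.0319), Col28a1 (-0.1229) and Col4a4 (-0.0793). With sample weights they were Col4a4 (-0.2457), Col8a2 (-0.0338), Col19a1 (-0.2749), Col23a1 (-0.0177), Col25a1 (-0.1483) and Col28a1 (-0.0557). With median-of-ratios scaling without WT replicate 3 they were Col4a4 (-0.0816), Col6a2 (-0.0047), Col8a2 (-0.0197), Col19a1 (-0.2281), Col25a1 (-0.1305) and Col28a1 (-0.1155). Col9a3 was -0.0344 with the replicate block and -0.0006 after rescaling without mitochondrial and abundant noncoding rows. When 1 library was left out, the fold change ran from -0.0802 to 0.1984 for Col4a4, from -0.0030 to 0.3703 for Col6a2, from -0.0182 to 0.4098 for Col8a2, from -0.0674 to 0.0610 for Col9a3, from -0.0330 to 0.1034 for Col9a2, from -0.0021 to 0.1048 for Col9a1, from -0.2264 to 0.6294 for Col19a1, from -0.1288 to 0.2426 for Col25a1 and from -0.1144 to 0.1281 for Col28a1. Apart from the fits without WT replicate 3, where that library itself was removed, the cause of these changes was not tested. TPM keeps no counts, so the depth behind each value is an estimate, and low chains such as Col10a1 rest on few reads.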
